A study of Mus musculus with 2 samples.

Results

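This account covers the genes of RING-type ubiquitin ligases named Rnf (RING finger protein) and Trim (tripartite motif) in a sequencing study of RNA bound by ELAVL2 in newborn mouse ovary. Members were all genes in the authors' deposited gene table whose symbol begins with Rnf, Trim or March followed by a digit, without Rnf212 and without entries described as pseudogenes. There were 61 such genes among 11969 in the table, 35 named Rnf and 26 named Trim. A peak overlapped 51 of the 61 (31 Rnf and 20 Trim), while the other 10 were listed only as neighbours of a peak outside them. No symbol began with March, because the table holds calendar dates in those cells. The descriptions beside the dates identify 7 MARCH (membrane-associated RING-CH) genes, which are given apart.

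Attachment of ubiquitin to a protein marks it for destruction by the proteasome or changes what it binds and where it goes. A ligase chooses the protein, and in RING ligases a zinc-binding RING domain brings the charged conjugating enzyme to it. Most TRIM proteins carry the RING in front of B-box and coiled-coil domains, with a variable end that sorts them into subfamilies. ELAVL2 belongs to the Hu family of RNA-binding proteins, which are best known for binding U-rich and AU-rich stretches in the 3' part of messenger RNAs. In the newborn ovary, oocytes are leaving their germ cell clusters to be enclosed in primordial follicles.

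The series holds 1 RNA immunoprecipitation (RIP) sample and 1 input sample, both from ovaries at postnatal day 0. The labels give no strain, genotype or drug, and no separate animals: 100 frozen ovaries were homogenised. The RIP used 5 ug of an antibody against ELAVL2 on protein G beads, and the input was 5% of the lysate, taken without antibody. RNA of both arms was amplified as antisense RNA before libraries were made, and what that does to the position of peaks was not tested. The ovary is a mixture of cells, so fewer cells of a type and less RNA per cell cannot be told apart, and a control pulldown was not analysed here.

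The authors called peaks on 3 pooled lanes of each arm, from 13787676 RIP tags (7.98% of all) and 19479946 input tags (9.26% of all) left after repeated positions were dropped. Every value below is therefore 1 comparison with no replicate check, no p-value across samples exists, and the authors' own fold, pileup and q are quoted as descriptions. The pileup is the number of RIP tags over a summit, and -log10 q is the peak caller's score. The fold is the pileup plus 1 over the scaled local input background plus 1. The input level behind each fold is the caller's local background, not a tag count at the summit. Keeping 1 tag per position limits the pileup, which was at most 97 over the overlapped genes of the table. Folds at high input levels are limited with it, so a low fold there need not mean weak enrichment. Among markers of the tissue, a peak overlapped 6 of 10 germ cell genes (Kit, Taf4b, Lhx8, Dazl, Sycp3 and Ddx4). A peak also overlapped 1 of 10 pregranulosa genes (Fshr), 1 of 10 stromal and vessel genes (Tek) and 0 of 10 blood genes. The share of all protein-coding genes was 23.4%. The exact interval of the germ cell share (26.2 to 87.8) lay above it. The marker lists were chosen with earlier results of these data known, so that is a description only. Figla, Nobox, Sohlh1 and Gdf9 were the germ cell genes without a peak. The intervals of the pregranulosa and the stromal and vessel shares (each 0.253 to 44.5) included it. That of the blood share (0 to 30.85) did too, so these counts do not show a share below that of all genes. A gene without a peak can still be expressed, because peaks mark enrichment over input.

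Sequences under the peaks of these genes could be read for 1 peak, because no genome sequence was used here and the reference tables hold promoter windows and microRNAs. None of the 53 members and MARCH genes with a RefSeq promoter window (GRCm38.p6) had a peak in it. The same count over all genes is not given here, so this is not shown to be particular to these genes. The exception lies in the table's body of Rnf26, inside the promoter window of the uncharacterised gene Gm39325. This peak is outside the RefSeq body of Rnf26 and also overlaps Usp2, a gene on the plus strand. It is shown to let a reader see the bases of a called peak, with capitals for the 11 bases centred on the summit.

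Peak in the Rnf26 body, chr9:44085007-44085062, minus strand: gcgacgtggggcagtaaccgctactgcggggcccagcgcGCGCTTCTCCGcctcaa

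The fold of this peak was 4.38 and its pileup 22. T made up 14.3% of its 56 bases on the strand printed. It held no TTTTT on either strand, while 10.2% of the same stretch of all 32851 promoter windows did. The called peaks carry no strand, so which strand was bound is not given by these bases.

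The first comparison asked how many of these ligase genes gave RNA enriched in the ELAVL2 RIP. In the whole table a peak overlapped 51.4% of listed genes, against 51 of 61 members (83.6%, exact Clopper-Pearson 95% interval 71.9 to 91.9, which covers counting only). The table also lists pseudogenes and predicted genes, so the RefSeq catalogue gives a fairer base. Of its 151 protein-coding RNF and TRIM genes, 51 were overlapped by a peak (33.8%, 26.3 to 41.9), against 23.4% of all 21900 protein-coding genes. RNF genes reached 31 of 83 (37.3%) and TRIM genes 20 of 68 (29.4%), with intervals that overlapped widely (27.0 to 48.7 and 19.0 to 41.7).

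Longer genes offer more room for a peak. The median RefSeq length was 18.8 kb for RNF and TRIM genes and 17.1 kb for all protein-coding genes. Among genes under 10 kb, 6 of 42 RNF and TRIM genes were overlapped (14.3%), against 7.65% of all. From 10 to 50 kb the share was 27 of 75 (36.0%) against 23.9%, and above 50 kb 18 of 34 (52.9%) against 48.0%. The share of these ligase genes was above that of all genes in each length class, but the intervals of the shortest (5.43 to 28.5) and longest (35.1 to 70.2) classes included the value for all genes. Classes follow RefSeq length and overlaps follow the table's bodies, so the 6 short genes include Rnf26 and Trim47, whose RefSeq bodies held 0 peaks. Counted by peaks in RefSeq bodies, the shares were 5 of 42 (11.9%) against 7.47%, 25 of 75 (33.3%) against 24.8%, and 19 of 34 (55.9%) against 49.6%. By that count the interval of the middle class (22.9 to 45.2) included the value for all genes too. Over all lengths it gave 49 of 151 (32.5%), against 24.1%. Expression differs between gene sets too, and its part in these shares was not tested.

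The 51 overlapped members held 236 peaks, with a median of 4 and at most 14 per gene, and 13 held only 1. Overlapped genes of the whole table had a median of 2 and at most 49, and 2176 of 6158 held only 1. At least 5 peaks lay in 22 of the 51 members (43.1%), against 27.7% of overlapped genes in the table. These are counts of called peaks, not of separate sites. With neighbours under 500 bp apart merged, 116 remained, and Trim71 went from 14 to 2, Trim36 from 6 to 1 and Rnf111 from 14 to 8. The merged share for all overlapped genes is not given here. The best fold of a member ranged from 1.84 to 12.9, with a median of 4.42 (quartiles 3.25 and 6.46), beside a median of 4.38 for all overlapped genes. A best fold of at least 5 was reached by 23 of 51 members (45.1%), against 39.9% of all overlapped genes. At a pileup of at least 20, where a fold rests on more tags, a fold of at least 5 was reached by 10 members (19.6%), against 11.2%. In median, the best fold of members was close to that of overlapped genes as a whole.

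**Figure D1:**
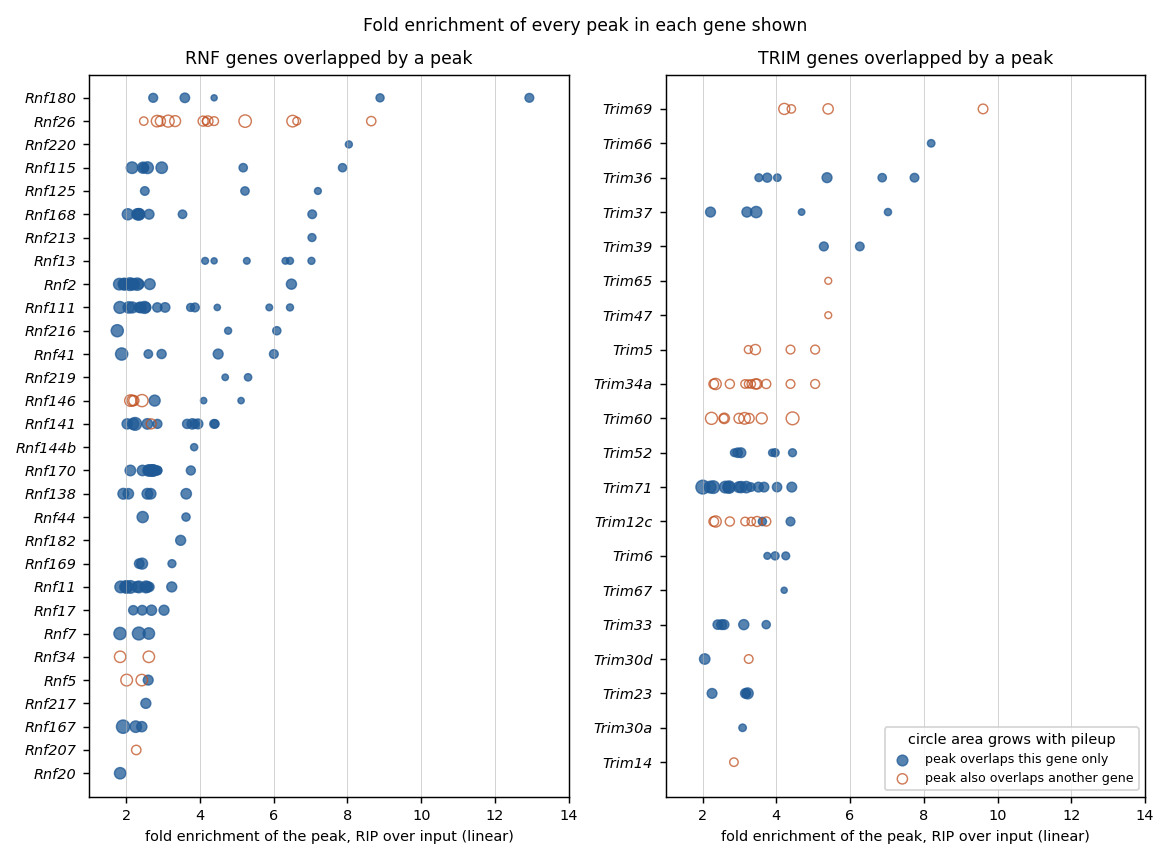
Each circle is 1 peak, placed by its fold enrichment of RIP over input (x axis, linear) in the row of the RNF or TRIM gene it overlaps. Filled circles overlap that gene only and open circles also overlap another gene. Rnf180 stands farthest to the right at 12.9, and all circles of Rnf26, Trim69, Trim60, Trim34a and Trim5 are open.

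Shared peaks limit the names. Peaks of 10 members (19.6%) all overlapped a second gene as well, against 15.5% of overlapped genes in the table: Rnf26, Rnf34, Rnf207, Trim5, Trim14, Trim34a, Trim47, Trim60, Trim65 and Trim69. The peaks carry no strand, so the genes under such a peak cannot be told apart. All 13 peaks of Rnf26, which encodes a ligase of the endoplasmic reticulum membrane, lay within the oppositely oriented deubiquitinase gene Usp2. The authors' table gives Rnf26 a body of 47.2 kb, whereas RefSeq gives it 2.27 kb, which held 0 of the 13 peaks. Their best fold was 8.64 and their largest -log10 q 18.9.

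Trim69, whose protein associates with microtubules, held 4 peaks with folds of 5.40, 4.22, 9.61 and 4.41 from its 5' to its 3' side. All 4 also overlapped the oppositely oriented Patl2, which encodes an oocyte repressor of translation. The 8 peaks of Trim60, led by a fold of 4.44 (pileup 60), all overlapped Apela, the gene of a peptide hormone, which runs in the same direction. All 8 also lay in the RefSeq body of Trim61, a PRY-SPRY gene that the authors' table does not list (chromosome 8, 65012976 to 65018688). Trim47 and Trim65, neighbours on chromosome 11, shared their only peak (fold 5.41, pileup 9). That peak lay in the RefSeq body of Trim65 and outside that of Trim47. Rnf34 shared both of its peaks with Kdm2b (best fold 2.61), Trim14 its only peak with Nans (2.85), and Rnf207 its only peak with Icmt (2.27). The peaks of Rnf34 and Trim14 lay past the RefSeq 3' ends of these genes, so their RefSeq bodies held none. A peak that overlapped no other gene was found in 41 of 51 members (80.4%), against 84.5% of all overlapped genes, and all 41 also had such a peak within their RefSeq body.

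The second comparison took the subfamilies in turn. Ligases of chromatin and DNA repair had peaks in 5 of 8 genes. Rnf2, which encodes the RING1B subunit that ubiquitinates histone H2A in Polycomb repressive complex 1 (chromosome 1, 151458004 to 151500955, mm10), held 11 peaks. Its folds were between 1.81 and 2.64 in 10 of them, at input levels of 11.3 to 27.6 tags. The remaining peak, at 151476146 to 151476215, stood apart at fold 6.48, pileup 33 and a -log10 q of 13.6 at an input level of 4.25.

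Rnf168, which encodes a ligase that marks histones around DNA breaks (chromosome 16, 32277459 to 32301434), had 7 peaks, none shared with another gene. A peak at 32282346 to 32282396, 20.5% of the way along the gene, reached a fold of 7.04 (pileup 21). The 5 peaks in the last 10% of the gene had folds of 2.62, 2.04, 2.35, 2.30 and 2.34 at pileups of 30 to 46. Rnf169, whose protein reads the mark made by RNF168, had 3 peaks with a best fold of 3.24. Rnf8, whose protein acts before RNF168 at breaks, was listed only for a peak 9062 bp upstream (fold 3.53) that lay in other genes.

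Rnf111, which encodes Arkadia, a ligase that strengthens TGF-beta signalling (chromosome 9, 70425429 to 70503725), held 14 peaks. The 8 in its last 10% had pileups of 28 to 51 and folds of 1.83 to 3.05, while its best fold of 6.44 rested on a pileup of 10 and was 3.86 at a pileup of at least 20. Rnf20, which encodes a histone H2B ligase, had 1 peak with a fold of 1.84, the lowest best fold of any member. Rnf4 and Rnf40 were not in the table.

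Membrane-bound RNF ligases outside the PA-TM-RING and MARCH subfamilies were overlapped in 5 of 15 genes (Rnf180, Rnf26, Rnf170, Rnf182 and Rnf5). Rnf180, known to ubiquitinate monoamine oxidase A, had the largest fold of any member (chromosome 13, 105149352 to 105271039). Its 5 peaks, none of which overlapped another gene, had folds of 12.9, 8.88, 3.59, 2.73 and 4.38 from the 3' to the 5' side. The strongest had a pileup of 22 and a -log10 q of 18.9 over an input level of 0.779, close to 1 scaled input tag (0.708). Its pair of nearest neighbours had pileups of 17 and 28. All 5 peaks of Rnf180 lay at 71.0% to 79.3% of its length, at least 25182 bp from the 3' end in the table, and the RefSeq gene runs 18785 bp further. Rnf170, whose protein acts on activated IP3 receptors, differed in layout: of its 12 peaks 7 lay in the last 10%, and the best fold was 3.75. Rnf182 had 1 peak, with a fold of 3.48, 153 bp before its 3' end. Rnf5, a ligase of protein quality control at the endoplasmic reticulum, had 3 peaks with folds up to 2.60.

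The PA-TM-RING ligases, single-pass membrane proteins of endosomes and lysosomes, were overlapped in 2 of 10 genes. Rnf13 had 6 peaks between 48.6% and 50.8% of its length, with folds of 4.14 to 7.02 and no pileup above 10. Rnf167 had 3 peaks at higher pileups, of 34 to 66, and a best fold of 2.42. Rnf130, which the authors' table does not list, had 1 peak in its RefSeq body. Rnf43, a membrane ligase that removes Wnt receptors, held no peak itself and was paired with 6 peaks upstream of it, the best of which (fold 8.52, pileup 25) lay 4311 bp away inside Hsf5.

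RING-between-RING ligases, which pass ubiquitin through a cysteine of their own, were overlapped in 3 of 8 genes. Rnf216 reached a fold of 6.08 (pileup 18), but only 1.76 among peaks of pileup 20 or more. Rnf144b had 1 peak (3.84, pileup 11) and Rnf217 had 1 (2.53, pileup 32). In the RNF114 family 2 of 4 genes were overlapped. Rnf125, a regulator of antiviral signalling, had 3 peaks in the table's body and reached a fold of 7.20 (pileup 9). Another of them (5.22, pileup 19) lay 25 bp before the 3' end that the table gives. Among the 3, the fold at a pileup of 20 or more was 2.50. The RefSeq gene runs 3511 bp further, where the peak of fold 5.22 was 3536 bp from the 3' end. The RefSeq body of Rnf125 held 7 peaks, and those past the table's end are not counted in these values. Rnf138, which acts in DNA end resection, had all 5 of its peaks in its last 10%, with folds from 1.92 to 3.63. The best of them had a pileup of 36.

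The other RNF genes with peaks numbered 14 of 38. Rnf115, which encodes a ligase linked to Rab GTPases, had 7 peaks and a best fold of 7.87 (pileup 18, -log10 q 10.1), at 89.7% of its length, but 2.96 among peaks of pileup 20 or more. Rnf41, whose protein NRDP1 directs the turnover of ErbB receptors, had 5 peaks, led by fold 6.00 (pileup 22). Rnf220 and Rnf213, the latter the gene of a giant ATPase ligase, each had 1 peak, with folds of 8.04 (pileup 10) and 7.04 (pileup 16). Rnf146, a ligase that recognises poly-ADP-ribose and acts on Axin, had 7 peaks, of which 4 also overlapped Echdc1. Its best fold of 5.11 rested on a pileup of 6.

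Rnf44 had 2 peaks and a best fold of 3.62. Rnf11, an adaptor of NEDD4-type ligases, had 10 peaks (best fold 3.23) and Rnf141 had 12 (best fold 4.41), none of them in the last 10% of Rnf141. Rnf17, the gene of a Tudor-domain protein of germ cells, had 4 peaks, the best (fold 3.03) at 110 bp from its 3' end. Rnf7, the RING subunit of cullin-5 ligases, had 3 peaks with a best fold of 2.61. Rnf219, a factor of replication origins now also named Obi1, had 2 peaks (best fold 5.30, pileup 12).

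Among TRIM genes, only Trim71 of the 4 TRIM-NHL genes had a peak. TRIM71, the mouse LIN-41, is an RNA-binding ligase and a classic target of let-7 microRNAs. Its 14 peaks, the joint highest number with Rnf111, all lay in its last 10% (chromosome 9, 114507133 to 114564369), between 203 and 5192 bp from the 3' end that the table gives. The peak nearest that end had the highest pileup (72) and input level (35.4) of the 14 and the lowest fold (2.01). The highest fold, 4.42, was 4945 bp from the end, over an input level of 6.02 and with a pileup of 30. The RefSeq gene ends 4135 bp earlier, so 10 of the 14 peaks lay past the RefSeq end and 4 inside it. Neither gene model was tested against the reads, which were not used here. Trim2, Trim3 and Trim32 were not in the table.

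The TIF1 genes, whose proteins carry chromatin-reading domains, were overlapped in 2 of 4. Trim66 had 1 peak (fold 8.20, pileup 13), and Trim33, a regulator of SMAD4, had 5 peaks, all in its last 10%, with folds of 2.41 to 3.72. Trim24 and Trim28 were not in the table. Of 8 genes with a microtubule-binding COS domain, Trim36 and Trim67 were overlapped. Trim36, needed for microtubule organisation in frog eggs (chromosome 18, 46165302 to 46212607), had 6 peaks that no other gene shared and that all lay between 294 and 1617 bp from its 3' end. Their folds, from the 3' end inward, were 7.75, 3.75, 3.53, 5.37, 4.03 and 6.87, at pileups of 13 to 31. No member with all of its peaks in the last 10% had a higher best fold than Trim36. Trim67 had 1 peak (fold 4.21, pileup 5).

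PRY-SPRY genes, the largest TRIM subfamily and rich in antiviral factors, were overlapped in 11 of 37, but only 5 of the 11 had a peak of their own. Trim39, whose protein acts in apoptosis and cell cycle control (chromosome 17, 36258873 to 36272247), had 2 such peaks, with folds of 5.29 and 6.26 at pileups of 23 and 21. The gene cluster on chromosome 7 from 104218793 to 104507849 held 7 of the subfamily in the table (Trim6, Trim34a, Trim5, Trim12c, Trim30c, Trim30a and Trim30d), of which 6 were overlapped. Together they held 19 peaks with folds of 2.06 to 5.05, of which 12 overlapped more than 1 gene. The table gives Trim34a a body of 96.2 kb that spans Trim5 and reaches into Trim12c, and its RefSeq body of 17.8 kb held 0 of its 11 peaks. These genes are close copies, so tags placed among them are uncertain. Peaks that overlapped only 1 gene remained in Trim6 (3, best fold 4.25), Trim12c (2, 4.38), Trim30d (1, 2.06) and Trim30a (1, 3.08).

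The remaining TRIM genes were overlapped in 4 of 15. Trim37, a ligase of centrosomes and peroxisomes, had 5 peaks, among them fold 7.03 (pileup 11) inside the gene and fold 3.45 (pileup 44) 182 bp from its 3' end. Trim52 had 6 peaks, all between 4.3% and 10.0% of the way along the gene, the best with fold 4.44 (pileup 16). Trim23, which joins a RING to an ARF GTPase domain, had 4 peaks, all in its last 10%, with a best fold of 3.22. Trim14, which lacks a RING, had only the shared peak given above.

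**Figure D2:**
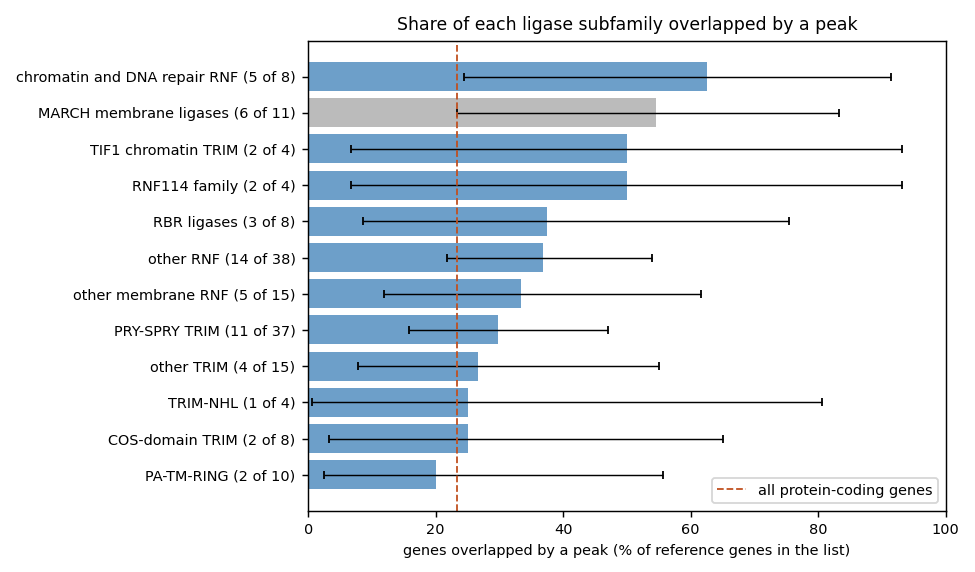
Bars give the percentage of RefSeq protein-coding genes of each ligase subfamily that a peak overlapped, with counts in the labels and exact 95% intervals as lines. The dashed line marks 23.4%, the share of all protein-coding genes, and the grey bar is the MARCH subfamily. Every interval is wide, and those of PA-TM-RING (2 of 10) and chromatin and DNA repair RNF (5 of 8) overlap.

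The subfamilies are small and do not separate by these counts. The share ran from 2 of 10 PA-TM-RING genes (20.0%, 2.52 to 55.6) to 5 of 8 chromatin and DNA repair genes (62.5%, 24.5 to 91.5). The interval of the latter alone lay above the 23.4% of all protein-coding genes, by a small margin. The lists were chosen with earlier results of these data known, so that is a description only.

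The 7 MARCH genes, transmembrane ligases that clear other membrane proteins, were read from their descriptions. A peak overlapped 6 of them, of 11 in RefSeq. March10 led with 11 peaks, reaching fold 7.31 (pileup 9) and 6.53 (pileup 24), and 6 of its 11 peaks overlapped no other gene. March8 had 2 peaks near its 5' end, the better with fold 6.44 (pileup 10). March7 had 9 peaks with a best fold of 2.84, of which 5 were in its last 10%. March4 (3.52), March6 (2.11) and March5 (1.92) had 1 peak each, and March11 was paired only with a peak 130929 bp away. With these genes added, the overlapped share became 57 of 162 (35.2%, 27.9 to 43.1).

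The third comparison asked where along these genes the peaks lay. Of the 248 pairs of a member and a peak, 124 had their summit within the final, 3'-most 10% of the gene (50%, 43.6 to 56.4), against 45.1% of all pairs in the table. The first 10% held 11 (4.44%), against 5.15% of all pairs in the table. The median summit was 2562 bp from the annotated 3' end, against 3888 bp for all pairs. A peak in the last 10% was present in 31 of 51 members (60.8%), against 59.7% of overlapped genes, and 14 members had all of their peaks there (27.5%, the same as the 27.5% of overlapped genes). Without merging, the layout of these genes was close to that of the table as a whole.

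**Figure D3:**
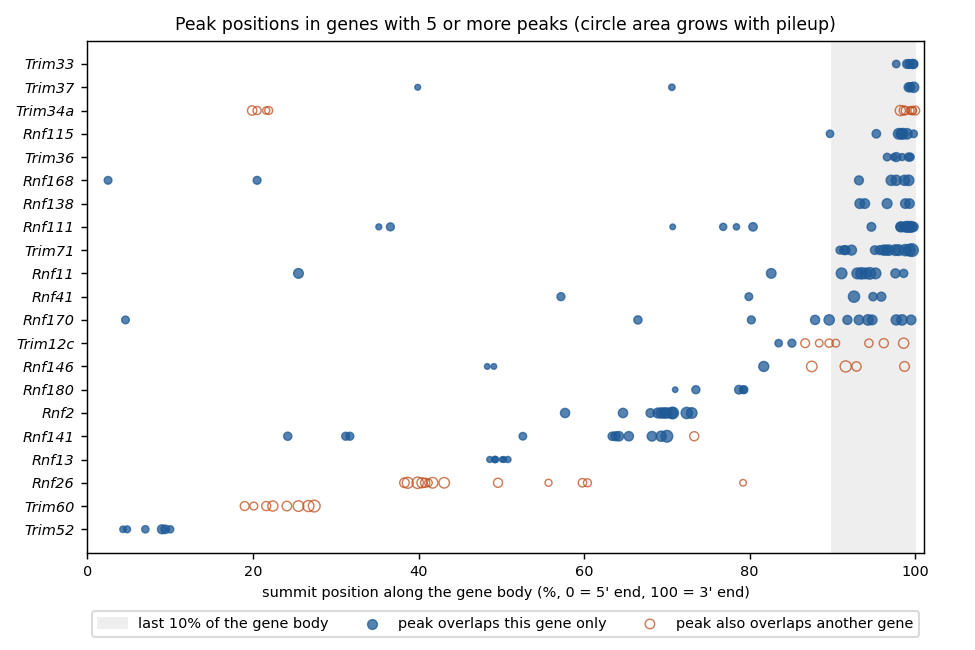
Each circle is a peak summit, placed by its position along the gene body from 5' (0%) to 3' (100%), for members with 5 or more peaks. Filled circles overlap that gene only and open circles also overlap another gene. In Trim33, Trim36, Rnf138 and Trim71 all circles are in the grey last 10%, while Trim52 lies at the 5' side and Rnf180, Rnf2, Rnf141 and Rnf13 have no circle there.

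The layouts of several members depended on the gene model, among them Rnf26, Rnf125, Trim34a and Trim71 as given above. Rnf11 had 8 of 10 peaks in the last 10% of the table's body and 5 of 7 in that of RefSeq. In the authors' table the 11 peaks of Rnf2 were 11610 to 18187 bp from its 3' end and none was in its last 10%. The RefSeq body of Rnf2 ends 11394 bp earlier, and there the nearest peak was 216 bp from the 3' end and 9 of the 11 were in the last 10%. Trim37 went the other way, since its RefSeq body runs 30191 bp further and its 3 terminal peaks lay at 75.1% to 75.5% of it. Over all members, 109 of 206 pairs inside RefSeq bodies were in the last 10% (52.9%), against 47.3% of all such pairs.

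The fourth comparison set the fold of these peaks against input level. That level was computed from the fold and the pileup, and a peak at low input needs a higher fold to pass the q cutoff. Higher folds at low input are therefore partly built in and are given as a description only. The 18 pairs with an input level of at most 1 scaled tag (0.708, compared at 3 decimals) had a median fold of 5.57 and a median pileup of 8. Of the 18, 0 were in the last 10% of a gene (interval 0 to 18.5%, which treats pairs as independent). The other 230 pairs had a median fold of 2.87 and a median pileup of 32, and 124 of them (53.9%) were in the last 10%. In the whole table these shares were 15.6% and 49.4%. The best folds of Rnf220, Rnf125, Rnf13, Trim66, Trim67, Rnf111, Rnf146 and Trim37 rested on such low input. Those of Rnf20 and Rnf7 rested on input levels of 24.1 and 17.0. A peak of pileup 20 or more was present in 40 of 51 members (78.4%), against 70.6% of overlapped genes.

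**Figure D4:**
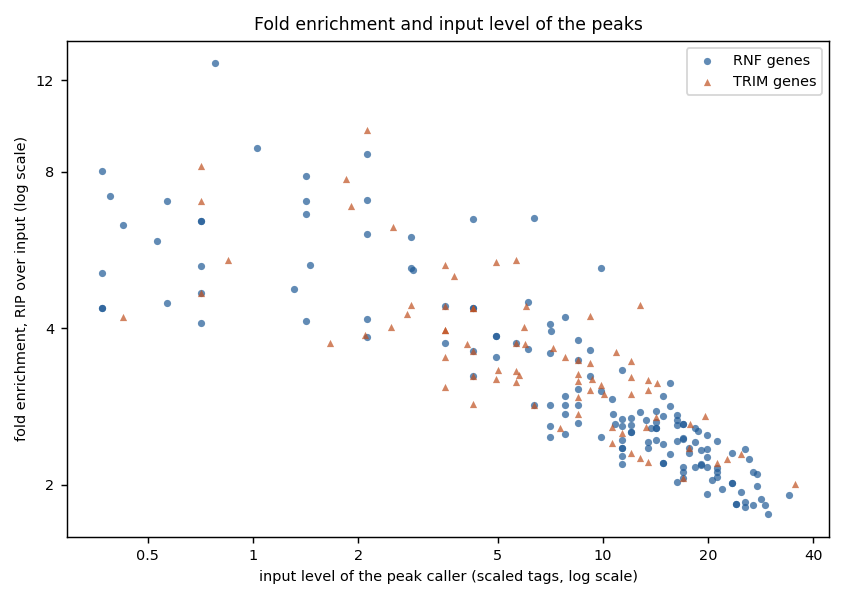
Each point is 1 peak of an RNF (circle) or TRIM (triangle) gene, with the input level in scaled tags on the x axis and the fold on the y axis, both log scales. The input level is computed from the fold and the pileup, so high folds at low input levels are partly built in. The fold of 12.9 in Rnf180 is at an input level of 0.779, and the fold of 2.01 in Trim71 at 35.4.

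Other ubiquitin ligase genes, a list of 70 well-known ones drawn up by hand, were overlapped in 43 (61.4%, 49.0 to 72.8), beside 23.4% of all protein-coding genes and 48.0% of those over 50 kb. Their median RefSeq length of 57.3 kb was above that of the RNF and TRIM genes (18.8 kb), so the shares of the lists are not compared. They held 244 peaks with a median best fold of 3.76, and 145 of their 244 pairs were in the last 10%, beside 45.1% of all pairs in the table. The Deltex gene Dtx2 had the largest best fold (8.82, pileup 15), ahead of the HECT ligase gene Herc2 (8.49, pileup 12). Znrf3, the partner of Rnf43 in Wnt receptor removal, had 6 peaks with a best fold of 7.61 (pileup 12), but 3.66 among peaks of pileup 20 or more. Bard1, the partner of BRCA1, had 7 peaks, led by fold 5.89 (pileup 48). Ube3a had the most peaks, 24, the best with fold 3.76 and overlapping 2 genes.

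The 10 members paired only with peaks outside them were Rnf8, Rnf43, Rnf113a2, Rnf183, Trim8, Trim21, Trim30c, Trim35, Trim44 and Trim75. The peak of Trim30c (fold 4.18) lay inside its RefSeq body of 21.7 kb, which is longer than the 8.5 kb of the table. Apart from Rnf43, their best outside folds ranged from 2.15 for Rnf183 to 5.27 for Trim44, whose peak was 16751 bp upstream. Trim71 was also paired with a peak 1023 bp upstream of it, of fold 5.27 and pileup 8.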

How the data were processed

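Tools named in the submitters' processing notes are MACS2 2.1.0.20140616, TopHat2 2.0.8b, CASAVA 1.8.2 and FastQC 0.11.2, with the build mm10. Per the file headers, tags of 36 bases were extended to 50 bp, 1 tag was kept per position, and peaks passed a q of 0.05. Deposited by the authors were the pileup (signal), the fold (ratio with a pseudocount of 1) and the -log10 p-value and q-value of each peak. Their table of peaks and Ensembl genes had 85730 rows, 43554 without exact repeats, and its making is not stated in these sources. Overlapping rows were counted. The input level is (pileup + 1) / fold - 1. Positions use the table's gene bodies, and RefSeq bodies (GRCm38.p6) were matched by symbol.

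Members and lists were chosen with earlier results of these data known. Named genes were the 8 members leading each of 3 rankings (fold among peaks of pileup 20 or more, -log10 q, number of peaks) and the 2 with the highest fold per subfamily. Other members were named after their values were seen. The values of 1 member, counted in the totals, are not reported here or drawn in the figures. MARCH genes read from descriptions, RefSeq bodies and peaks that overlap no other gene were added as alternatives after seeing the data. Functions were tested on simulated data. Python 3.11.15, pandas 2.3.3 and scipy 1.17.1 were used. With 1 sample per arm no test across samples was made.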

Additional observations from a re-analysis of the deposited data

Results flagged for a closer look

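Signal was also found outside what the comparisons counted. A peak overlapped 6 MARCH genes whose symbols the table holds as dates, above the limit that a count of 0 allows. For another 10 members the table lists peaks beside the gene and none in it.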

How the results depend on the processing

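No paired analysis was possible because each arm held 1 sample and no result came from a test. The number of overlapped members (51) fell to 19 when only peaks paired with exactly 1 gene were counted, and the number of other ligase genes (43) to 17. Under the other alternatives run the first lay between 40 and 61, and it was 46 for peaks also in the RefSeq body. The number of peaks (236) was 117 at a fold of at least 3, 116 with neighbours under 500 bp apart merged, and 56 from peaks paired with 1 gene. The median best fold (4.42) was 4.44 at a -log10 q of at least 2, 3.35 at a pileup of at least 20, 5.05 at a fold of at least 3, 4.43 for peaks wholly inside the gene, 3.63 for peaks paired with 1 gene, 4.41 with outside rows or with MARCH genes added and 4.41 in RefSeq bodies. It was 4.38 for peaks in no other gene and 5.43 without the pseudocount. The share of pairs in the last 10% (50%) was 57.3% at a pileup of at least 20, 39.7% at a fold of at least 3 and 40.5% after merging. The cause of these moves was not tested. Among peaks paired with 1 gene, 18 of 29 named RNF and TRIM genes had no peak left. At a pileup of at least 20, 5 of the 29 had none left, and 5 best folds changed over 1.5 times (Rnf111 to 3.86, Rnf115 to 2.96, Rnf125 to 2.50, Rnf216 to 1.76, Trim37 to 3.45). Without the pseudocount all 29 were higher, 9 by over 1.5 times: Rnf180 28.3, Rnf220 27.1, Rnf125 23.1, Rnf13 18.8, Trim66 18.4, Trim37 15.5, Rnf111 15.1, Rnf115 12.7 and Trim67 11.8. With outside peaks included Rnf138 rose to 7.20, at a peak inside Rnf125. The MARCH, RefSeq body and no-other-gene alternatives were chosen after seeing the data.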
